A study of Sus scrofa with 6 samples.

Results

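The 44 genes described here encode the machinery with which the endoplasmic reticulum (ER) takes up, trims, glycosylates and folds secreted and membrane proteins, and the factors that answer when unfolded protein piles up there. They are defined by name and role, in a list drawn up with earlier results of these data known, and all 44 were found among the 20648 genes counted. They fall into 9 groups by role, namely signal recognition, the translocon, the TRAP complex, signal peptidase, oligosaccharyltransferase, chaperones, disulfide and proline isomerases, stress sensors and transcription factors, and stress targets with degradation genes. The cells came from scraped ileal mucosa of male Large White piglets fed maternal milk, and were profiled by droplet single-cell RNA sequencing, in which each captured transcript is counted once as a unique molecular identifier (UMI). There were 6 groups by age, sampled at birth (day 0) and 1, 3, 7, 14 and 21 days later, each measured as 1 library and with no treatment. The study took several piglets per age, and how their cells were combined in a library is not given in the sources used here. With 1 library per age no age was tested against another, while cell types were compared across libraries. The deposited counts summed to 77391932 to 100348769 UMIs per library, and 76099 barcodes with at least 1000 UMIs and 500 genes were taken as cells.

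Most secreted and membrane proteins begin with a signal sequence, which the signal recognition particle binds while the protein is still being made. The ribosome is then docked at the Sec61 translocon, next to which the translocon-associated protein (TRAP) complex, oligosaccharyltransferase and signal peptidase act on the entering chain, and chaperones and protein disulfide isomerases fold it. Unfolded protein activates the sensors IRE1, PERK and ATF6, which act through XBP1, ATF4 and ATF6 itself to raise chaperones, degradation genes or, under lasting stress, DDIT3 (CHOP). Plasma cells, goblet cells and fibroblasts are classical examples of cells with an enlarged ER. The symbols SSR1 to SSR4 stand here for signal sequence receptor, the subunits of TRAP, and not for the somatostatin receptors that carry a similar abbreviation.

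Cells were sorted by UMIs of a few lineage genes into 6 gates, none of which uses a gene of the list. The plasma gate needed 5 UMIs of JCHAIN, the joining chain of secreted IgA and IgM, and the B gate needed 2 UMIs of MS4A1, PAX5 and POU2AF1 together and no JCHAIN. The T gate needed 2 UMIs of CD3E and CD3G, the epithelial gate 5 of EPCAM, KRT8 and VIL1, the enteroendocrine gate 10 of the granins CHGA and CHGB, and the stromal gate 5 of the collagen gene COL3A1. Of all cells, 40.3% passed no gate and 1598 passed 2 or more. Of these, 712 were in both the enteroendocrine gate, which held 775 cells in all, and the epithelial one, and 456 in both the B and the T gate. A gate was used in a library where it held at least 20 cells, which left days 3, 7, 14 and 21 for the plasma gate, all 6 libraries for B and T, the 5 libraries of days 0 to 14 for epithelial, and days 0, 1 and 3 for enteroendocrine and stromal cells. In the libraries, 672 barcode sequences of cells were found more than once.

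The gates were checked against markers that did not define them. In the stromal gate the sum of COL1A1, COL1A2, DCN, LUM, PDGFRA and POSTN lay at 74.9 to 104 UMIs per 10000, against at most 2.07 in any other gate on any day. Epithelial markers (named below) summed to 11.2, 10.7 and 9.87 in the stromal, T and B gates on day 0, against 40.15 in the epithelial gate. In the stromal gate they were at 1.53 and 0.106 on days 1 and 3. The part of such RNA in the comparisons below was not tested. The plasma gate held 3.26 to 5.77 UMIs per 10000 of PRDM1, IRF4, TNFRSF17, SDC1 and CD38 together, and the B gate 0.527 to 1.28. Of these, PRDM1 was higher than in the B gate by 3.44 ± 0.29 (log2, SE, adjusted p = 2.9e-07 with edgeR), TNFRSF17 by 6.78 ± 0.93 (adjusted p = 0.00026) and IRF4 by 1.85 ± 0.49 (adjusted p = 0.024). CD38 (adjusted p = 0.056) and SDC1, the usual surface marker of plasma cells (adjusted p = 0.072), did not pass. The sum of 6 B markers outside the gates was 9.98 to 14.3 in the plasma gate and 10.3 to 20.1 in the B gate, against 0.768 to 6.92 in the T gate. Tested singly with edgeR, only TNFRSF13C of the 6 was lower in the plasma than in the B gate (-1.46 ± 0.35, adjusted p = 0.014). The others did not pass, BANK1 being at 0.34 ± 0.40. MS4A1, which encodes CD20, was at 3.15, 4.74, 5.48 and 8.22 UMIs per 10000 in the plasma gate on days 3, 7, 14 and 21, and in barcodes of 1 to 100 UMIs at 1.72, 2.82, 5.32 and 6.16 on the same days. A UMI of MS4A1 was found in 72.5 to 87.1% of plasma gate cells and 11.8 to 33.1% of T gate cells on these days, and in 24.1 to 51.5% and 3.01 to 16.8% with each cell thinned to 1000 UMIs. The part of doublets in these shares was not tested, and the gate is named below only by its rule. Its cells were deeper, with median depths of 6306 to 11846 UMIs per library against 3472 to 4243 in the B gate, and a gate on a fixed number of UMIs favours deep cells.

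Taken as a sum, the 44 genes made up 152, 255, 182 and 125 of every 10000 UMIs in the plasma gate on days 3, 7, 14 and 21. In the B gate they made up 65.6 to 78.2 with a median of 72.6, so that the lowest plasma value was above every B value. These are pooled sums, to which deep cells add more. Within the plasma gate the cells ranged widely, with medians over cells of 114, 231, 165 and 101 on the same days and lower quartiles of 74.1, 137, 102 and 68.8, while the median B cell lay between 62.8 and 73.1. The lower quartiles of days 3 and 21 were below the upper quartiles of the B gate in the same libraries, 75.8 and 76.3. The T gate held 67.7 to 90.0, with a median of 84.2. Values in the epithelial gate were 101, 105, 122, 99.3 and 132 on days 0, 1, 3, 7 and 14, and those in the stromal gate 99.3, 103 and 113 on days 0, 1 and 3. Both gates lay above every B and T value as pooled sums. By the median cell this did not hold for the epithelial gate, which was at 71.0 on day 7, below the T gate of that day (78.8). In the enteroendocrine gate the sum was 94.3, 107 and 72.7 on days 0, 1 and 3, which spanned the range from lymphocytes to epithelium. Goblet cells, gated on 5 UMIs of FCGBP, CLCA1 and MUC2 for values only, held 123, 127 and 184 on the same days and exceeded the epithelial and stromal gates of the same library each time. Barcodes with 1 to 100 UMIs, which stand for RNA free in the suspension, held 72.1 to 87.0, close to the level of the lymphocyte gates. Exact Poisson intervals on these sums cover counting error only.

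**Figure D1:**
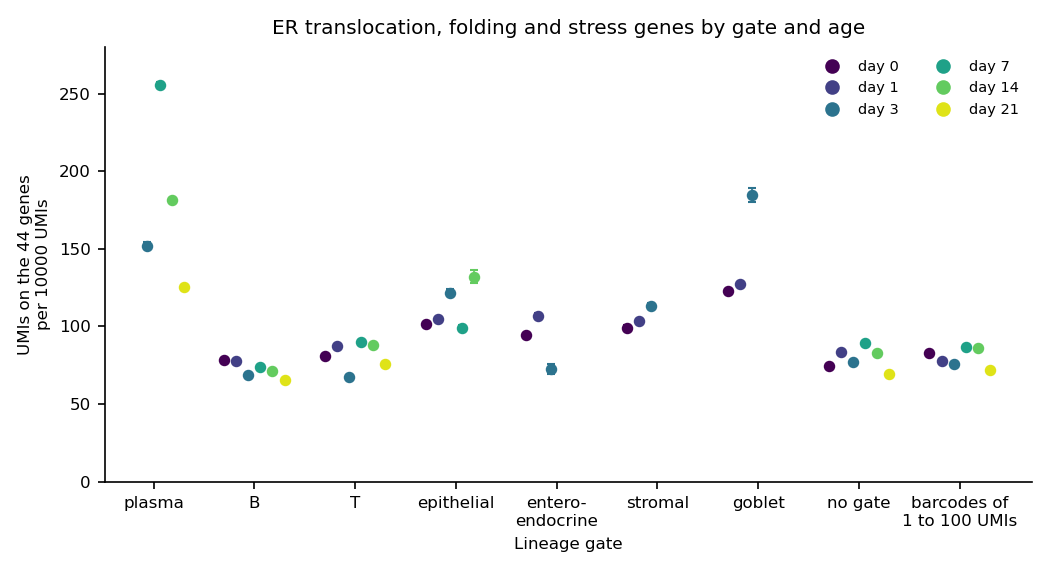
UMIs on the 44 genes per 10000 UMIs (vertical axis) by lineage gate (horizontal axis), 1 point per library coloured by age, bars being exact 95% Poisson intervals that cover counting error only. The plasma gate (125 to 255) lies above the B gate (65.6 to 78.2), and goblet cells lie above the other epithelial and stromal values of the same day.

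The makeup of the sum differed as well. Chaperones held 29.0 to 31.2% of the list's UMIs in the plasma gate and 18.3 to 23.5% in the B gate, and signal peptidase 12.03 to 14.15% and 7.38 to 11.13%. The stress sensors and transcription factors went the other way, with 3.6 to 5.0% in the plasma gate and 7.3 to 14.5% in the B gate. In absolute terms this last group stood at 6.46, 9.07, 8.99 and 6.29 UMIs per 10000 in the plasma gate and at 4.78 to 11.3 in the B gate, so its 2 ranges overlapped. The high end of the B range came from days 0 and 1, ages at which the plasma gate held too few cells. Against the B gate of the same library the group was lower in the plasma gate on day 3 and higher on days 7, 14 and 21.

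Gates were compared gene by gene with a quasi-likelihood model on UMIs summed per library and gate, with the library as a block. Of the 44 genes, 37 (84.1%) were higher in the plasma than in the B gate at an adjusted p below 0.05 and 0 were lower, while over all 13399 genes tested 3.75% were higher and 4.11% lower. At an unadjusted p below 0.05 still 0 of the 44 were lower, as with DESeq2. The median log2 fold change was 1.22 over the list and -0.24 over all genes tested. In 38 of the 44 the level was higher in the plasma gate in each of the 4 libraries, as in 8.74% of all genes tested. Under the size factors of DESeq2 the genes called over the whole table shifted from 503 higher and 551 lower to 640 and 219, and 40 list genes were higher. The libraries are the replicates here, and each is of another age. The block takes out shifts that all gates of a library share. The errors hold how far the differences between gates vary from library to library, taken over all gates in the fit. Age and preparation are not told apart in that variation.

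At the entry of the ER the changes were moderate. All 3 signal recognition genes rose, from SRP14 by 0.58 ± 0.14 (adjusted p = 0.014) to SRPRB, the membrane anchor of the receptor, by 0.75 ± 0.22 (adjusted p = 0.042). The ranges of all 3 overlapped between the gates, and on day 21 SRPRB was at 0.89 times its B level. Of the translocon, SEC61B was at 10.5, 14.8, 10.1 and 7.30 UMIs per 10000 in the plasma gate on days 3, 7, 14 and 21 and at 3.44 to 4.19 (median 3.93) in the B gate, without overlap, a difference of 1.44 ± 0.20 (adjusted p = 0.00011). SEC61A1, the pore itself, SEC61G and SEC63, a docking site for the chaperone HSPA5, rose too, and SEC62, which handles short precursor proteins, did not pass (0.45 ± 0.15, adjusted p = 0.069). All 4 TRAP subunits were higher, SSR1 by 1.30 ± 0.21, SSR2 by 1.35 ± 0.19, SSR3 by 1.51 ± 0.20 and SSR4 by 0.88 ± 0.21, the weakest adjusted p being 0.014 for SSR4. SSR2 stood at 9.07, 17.3, 12.8 and 7.17 in the plasma gate and at 3.76 to 6.25 (median 4.67) in the B gate. For SSR4 the plasma values of 10.4, 14.8, 12.7 and 9.24 overlapped the B range of 5.72 to 13.2 (median 7.44), whose high end came from day 0 and day 1, ages at which the plasma gate held too few cells.

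The enzymes that act on the entering chain followed. All 5 genes of signal peptidase rose, led by SEC11C, a catalytic subunit, at 2.40, 4.74, 2.65 and 1.83 UMIs per 10000 against 0.444 to 0.740 (median 0.578) in the B gate (2.35 ± 0.20, adjusted p = 3.4e-07). The other catalytic subunit, SEC11A, moved the least (0.48 ± 0.12, adjusted p = 0.014). The alternative catalytic subunits thus had the highest and the lowest fold change of the group. Of oligosaccharyltransferase, which transfers N-glycans, 4 of 5 rose, with RPN1 and DDOST each 1.54 higher (SE 0.21 and 0.20), while the small subunit OST4 was 0.35 ± 0.12 higher and did not pass (adjusted p = 0.073), though it did in a fit on the plasma and B gates alone (0.45 ± 0.13, adjusted p = 0.045).

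Of the chaperones 6 of 7 rose. HSP90B1 (GRP94), the ER form of HSP90, was at 16.5, 32.0, 20.3 and 12.5 UMIs per 10000 in the plasma gate and at 2.01 to 3.41 (median 2.83) in the B gate (2.66 ± 0.29, adjusted p = 9.6e-06). SDF2L1, which works with HSPA5 and its cofactor DNAJB11, was at 3.46, 4.58, 2.43 and 1.18 against 0.218 to 0.403 (median 0.267), a difference of 3.20 ± 0.32 (adjusted p = 3.0e-06). Both were higher in each plasma library than in any B library. By contrast HSPA5 (BiP), the central chaperone and sensor partner, stood at 4.56, 7.16, 5.38 and 4.71 against 2.96 to 4.20 (median 3.25) and rose by only 0.74 ± 0.19 (adjusted p = 0.022). The lectin chaperones CALR and CANX rose by 0.91 ± 0.18 and 0.72 ± 0.14. MZB1, a cochaperone of HSP90B1 known from marginal zone B cells, was at 11.7, 20.5, 14.5 and 9.10 in the plasma gate and at 3.62 to 4.30 (median 3.90) in the B gate. These ranges did not overlap, and the ratio within a library was 2.37 to 4.91, yet the fit over all gates gave 0.99 ± 0.51 and no call (adjusted p = 0.26). Fitted on the plasma and B gates alone, MZB1 was 1.91 ± 0.18 higher (adjusted p = 0.00039). The library term of the larger fit is shared by all gates, and in the T gate MZB1 stood at 0.334 on day 0 and 2.16 on day 14. The part of this in the gap between the 2 fits was not tested.

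Among the isomerases, TXNDC5 (ERp46) had the highest fold change of the list. It stood at 2.27, 10.7, 6.33 and 3.76 UMIs per 10000 in the plasma gate on days 3, 7, 14 and 21 and at 0.177 to 0.373 (median 0.285) in the B gate, a log2 difference of 4.37 ± 0.27 (adjusted p = 5.2e-09). FKBP11, a proline isomerase of secretory cells, followed with 2.92, 5.29, 3.32 and 2.01 against 0.387 to 1.27 (2.63 ± 0.37, adjusted p = 0.00012). The gates were apart in all libraries for both genes. PDIA4, P4HB and PDIA6 rose by 1.50 ± 0.20, 1.36 ± 0.25 and 0.79 ± 0.20, and PDIA3, which acts on glycoproteins together with CALR and CANX, did not pass (0.62 ± 0.20, adjusted p = 0.062) but was higher in all 4 libraries and in the fit on the 2 gates alone (0.83 ± 0.12, adjusted p = 0.0034).

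Of the sensors and transcription factors only XBP1, which plasma cells need to enlarge the ER, was called. It stood at 0.908, 3.49, 2.23 and 1.35 in the plasma gate and at 0.201 to 0.493 (median 0.315) in the B gate (2.70 ± 0.30, adjusted p = 1.0e-05). ATF4, the translation-controlled factor downstream of PERK, was at 3.94, 4.56, 5.33 and 3.96 against 3.85 to 7.52 (median 5.49), a difference of -0.08 ± 0.16 (adjusted p = 0.80). DDIT3, the proapoptotic factor downstream of ATF4, was at 1.23, 0.730, 1.16 and 0.667 against 0.419 to 3.09 (median 1.57), a difference of -0.10 ± 0.31 (adjusted p = 0.89). For ATF4 and DDIT3 the plasma values lay within the B range and were above the B value of the same library in 2 of 4 libraries. ATF6 differed by 0.32 ± 0.15 (adjusted p = 0.21). UMIs do not tell the spliced from the unspliced form of XBP1, nor an active sensor from an inactive one.

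All 5 stress targets and degradation genes rose. CRELD2, a folding factor induced by ER stress, was at 1.51, 2.13, 0.889 and 0.455 in the plasma gate against 0.0817 to 0.172 (median 0.128) in the B gate (3.12 ± 0.44, adjusted p = 0.00013). MANF, which binds HSPA5, rose by 1.51 ± 0.25, and HERPUD1, a member of the retrotranslocation complex, by 1.22 ± 0.17. DERL3, a channel component of that pathway, was at 2.32, 5.41, 4.64 and 2.76 against 0.826 to 1.62 (1.22 ± 0.33, adjusted p = 0.027), and SEL1L, the partner of the ubiquitin ligase HRD1, rose the least (0.97 ± 0.16, adjusted p = 0.00067). Of 67 other genes of the pathway tested, 38 (56.7%) were higher and 1 (1.49%) lower, against 3.75% and 4.11% of all genes tested. The highest were ERN1, which encodes IRE1, the enzyme that splices XBP1 (3.50 ± 0.45), the transcription factor CREB3L2 (3.34 ± 0.30) and the isomerase PDIA5 (3.01 ± 0.37). The lower one was ERO1B, an oxidase that recharges the isomerases (-0.95 ± 0.25, adjusted p = 0.022), at 0.214 to 0.358 in the plasma gate and 0.281 to 0.575 in the B gate.

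**Figure D2:**
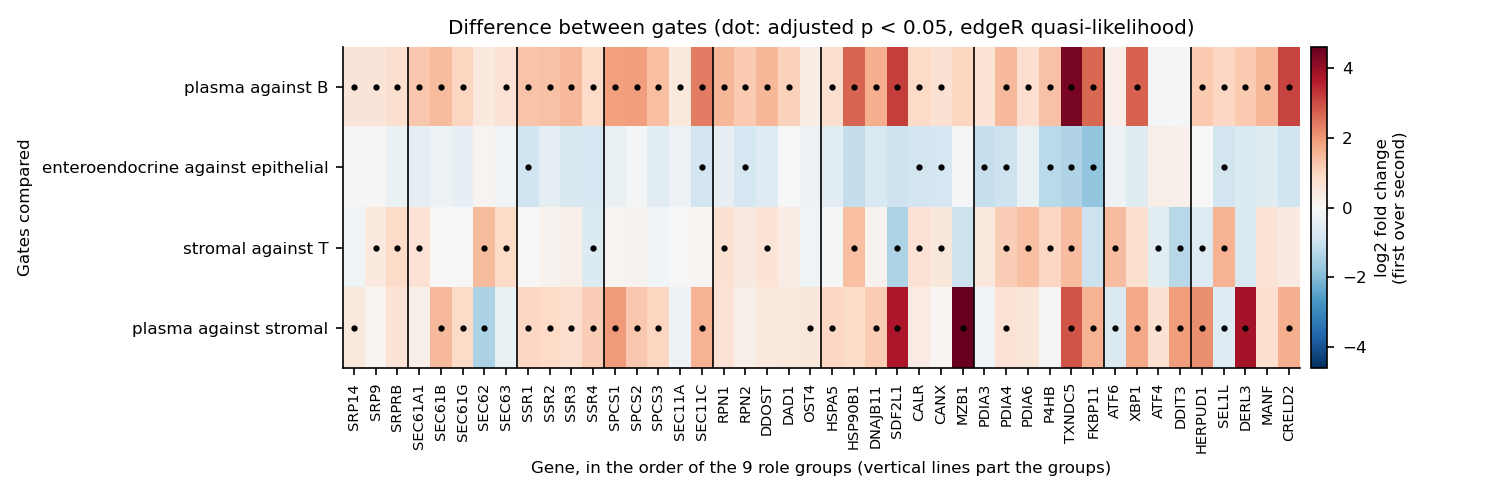
Fitted log2 fold change (colour) of each of the 44 genes (horizontal axis, by role) in 4 comparisons between gates (vertical axis), a dot marking an adjusted p below 0.05. The plasma against B row is positive for 42 genes, with dots at 37 and TXNDC5 at 4.37 as its highest value, and negative for ATF4 and DDIT3, and the enteroendocrine row has 5 of its 11 dots among the isomerases.

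Within the libraries of days 7, 14 and 21 the level of the list rose with the number of JCHAIN UMIs in the cell. On day 7 it was 74.9 UMIs per 10000 in cells without JCHAIN, 81.3 at 1 UMI, 111 at 2 to 4, 213 at 5 to 9, 280 at 10 to 19, 298 at 20 to 49 and 345 at 50 or more. Day 14 gave 72.6, 77.6, 90.3, 152, 215, 228 and 316 in the same bins. The level rose at each step on both days. On day 3 it was 73.3 without JCHAIN, 71.1 at 1 UMI, 78.1 at 2 to 4, 126 at 5 to 9 and 187 at 10 to 19. In the libraries of days 0 and 1, which held too few cells above 4 UMIs of JCHAIN, the level was lower in cells with JCHAIN than without it, at 91.3, 83.9 and 89.3 on day 0 and 90.7, 81.5 and 83.5 on day 1 for 0, 1 and 2 to 4 UMIs. The bins hold cells of all lineages. On day 0 the epithelial gate, at 101 on the list, held 45663332 of 75033518 UMIs, and the B gate was at 78.2. The part of cell makeup in the bins was not tested. MS4A1 on day 14 went from 9.30 in cells without JCHAIN to 2.02 in those with 50 or more. On day 21 the list stood at 65.7, 68.1 and 73.4 in the first 3 bins, at only 91.5 in cells with 5 to 9 UMIs of JCHAIN and at 180 in those with 10 to 19, where MS4A1 was at 9.98 and 5.74. At the limit of the gate itself, cells with 4 and with 5 UMIs of JCHAIN held 95.9 and 101 on day 3, 170 and 195 on day 7, 110 and 129 on day 14, and 79.2 and 86.9 on day 21. With the plasma gate set at 20 UMIs of JCHAIN, an alternative that was planned for the sum and chosen after seeing the data for the genes, the day 3 library fell below 20 cells and the gate held 84, 96 and 34 cells on days 7, 14 and 21. The median of the sum over these 3 libraries was 257, and 41 of the 44 genes were higher than in the B gate, against 7.52% of the 13111 genes in that fit.

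**Figure D3:**
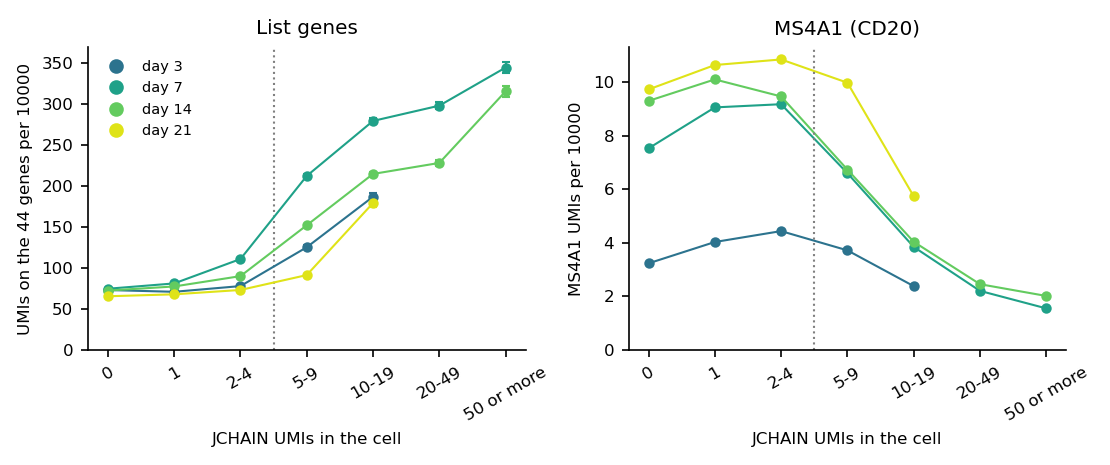
UMIs per 10000 on the 44 genes (left, with exact 95% Poisson intervals for counting error) and on MS4A1 (right) by JCHAIN UMIs in the cell on days 3, 7, 14 and 21, in bins of at least 20 cells, with a dotted line at the limit of the plasma gate. On day 7 the list goes from 74.9 to 345 and on day 14 from 72.6 to 316 as JCHAIN increases, while MS4A1 is lowest in the top bin.

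Enteroendocrine cells, which store peptide hormones in granules, were compared with the epithelial gate. The 2 gates share cells, so that UMIs of the same cells entered both sums. The sums are thus not independent, while the fit treats them as if they were. Of the 775 enteroendocrine cells 712 were also in the epithelial gate. On day 3 these were 33 of 40, in an epithelial gate of 103 cells. Of the 44 genes, 0 were higher and 11 (25%) lower in the edgeR fit, against 4.75% and 3.53% of all genes tested. The count of higher genes was also 0 with DESeq2 and at an unadjusted p below 0.05. In UMIs per 10000, 15 of the 44 were lower and 4 higher in the enteroendocrine gate in each of the 3 libraries it shares with the epithelial gate, against 13.3% and 36.1% of all genes tested. Of the 11, 5 were among the 6 isomerases. FKBP11 was at 1.70, 1.55 and 0.349 UMIs per 10000 in the enteroendocrine gate on days 0, 1 and 3 and at 2.77, 1.76, 4.79, 2.14 and 3.13 in the epithelial gate on days 0, 1, 3, 7 and 14 (-1.80 ± 0.46, adjusted p = 0.022). TXNDC5 was at 0.550, 0.685 and 0.280 against 1.06, 1.66, 0.892, 0.992 and 1.17 (-1.38 ± 0.32, adjusted p = 0.015). The values of the 2 gates did not overlap for either gene. P4HB, the first of the disulfide isomerases to be described, was lower by -1.23 ± 0.31, PDIA3 by -1.05 ± 0.24 and PDIA4 by -0.95 ± 0.24, whereas PDIA6 did not pass (-0.35 ± 0.25, adjusted p = 0.43).

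The remaining lower calls were spread over the groups. They were SSR1 (-0.92 ± 0.25), SEC11C (-0.89 ± 0.24), RPN2 (-0.82 ± 0.21), CALR (-0.86 ± 0.22), CANX (-0.80 ± 0.17) and SEL1L (-0.83 ± 0.21), and no signal recognition, translocon or transcription factor gene was among them. SSR2, SSR3 and SSR4 differed by -0.47 ± 0.21, -0.74 ± 0.24 and -0.76 ± 0.25 and did not pass (adjusted p = 0.18, 0.061 and 0.061). HSPA5 was at 4.26, 5.21 and 2.13 against 4.24, 5.30, 3.39, 5.22 and 5.35 (-0.52 ± 0.23, adjusted p = 0.16), close together on days 0 and 1 and apart on day 3. XBP1 differed by -0.55 ± 0.35 (adjusted p = 0.35). Signal recognition ran from -0.30 (SRPRB) to 0.05 (SRP9) and the translocon from -0.41 (SEC61A1) to 0.13 (SEC62). ATF4 and DDIT3 had positive values of 0.27 ± 0.18 and 0.22 ± 0.36 and did not pass (adjusted p = 0.38 and 0.79). ATF4 was at 7.60, 7.37 and 4.72 in the enteroendocrine gate and at 5.42, 4.90 and 3.90 in the epithelial gate of the same libraries. Of the other pathway genes 7 (10.4%) were lower and 1 (1.49%) higher, against 3.53% and 4.75% of all genes tested. EDEM1, which targets misfolded glycoproteins for degradation, was the lowest (-1.37 ± 0.29), followed by the transcription factor CREB3L1 (-1.36 ± 0.39) and the retrieval receptor KDELR2 (-0.96 ± 0.29). TUSC3, an oxidoreductase subunit of oligosaccharyltransferase, was the 1 that was higher (2.41 ± 0.67, adjusted p = 0.040).

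For P4HB, CANX and SEL1L the fitted folds, 0.428, 0.574 and 0.562, lay below the ratio in every library that held both the enteroendocrine and the epithelial gate. These ratios ran from 0.517 to 0.654, 0.738 to 0.806 and 0.613 to 0.872. The other lower calls lay within theirs. In a fit on these 2 gates alone, 9 of the 11 genes were again called lower. P4HB, CANX and SEL1L were at -0.96 ± 0.16, -0.61 ± 0.16 and -0.62 ± 0.17 there, and PDIA4 at -0.99 ± 0.21, slightly lower than over all gates. FKBP11 (-1.37 ± 0.55, adjusted p = 0.12) and SEC11C (adjusted p = 0.058) did not pass there, while HSP90B1 was lower (-0.77 ± 0.22, adjusted p = 0.049) and MZB1 higher (0.80 ± 0.21, adjusted p = 0.039). The comparison also depended on single libraries. Without the day 1 library 0 list genes were lower, without day 0 the count was 4, without day 3 it was 3, and with at least 50 cells per library and gate, which leaves out the 40 enteroendocrine cells of day 3, it was 5. Counts over all genes in these fits are not given here. A loss of calls on the list is therefore not told from a loss over all genes. Immediate early and heat shock genes known to respond to tissue dissociation (FOS, FOSB, JUN, JUNB, EGR1, ATF3, IER2, DNAJB1 and HSPH1) summed to 159, 137 and 50.8 UMIs per 10000 in the enteroendocrine gate and to 71.3, 57.4 and 35.8 in the epithelial gate of the same days, and their part in the differences was not tested.

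The stromal gate, rich in collagen-secreting cells and measured on days 0, 1 and 3, was compared with the T gate of all 6 libraries. Of the 44 genes 16 (36.4%) were higher and 5 (11.4%) lower, with 24.6% and 17.5% of all genes tested called in these directions. In UMIs per 10000, 34 of the 44 were higher and 5 lower in the stromal gate in each of the 3 libraries that held both, against 45.2% and 18.3% of all genes tested. Among the 34 were SRP14, SEC61B, SEC61G, SSR1 and OST4, whose fitted values, from -0.19 to -0.01, were not called. The gates differ across much of the transcriptome, and the counts of the list have to be read against that background. SEL1L had the highest fold change, at 0.488, 0.622 and 0.784 UMIs per 10000 in the stromal gate on days 0, 1 and 3 and at 0.157 to 0.250 (median 0.189) in the T gate (1.60 ± 0.18, adjusted p = 7.9e-07). SEC62 followed with 2.20, 2.09 and 2.68 against 0.559 to 1.04 (median 0.823), a difference of 1.45 ± 0.16 (adjusted p = 7.6e-07). TXNDC5 was the third (1.42 ± 0.29). ATF6, the membrane-bound transcription factor, was at 0.481, 0.691 and 0.653 against 0.156 to 0.235 (median 0.179; 1.41 ± 0.17, adjusted p = 1.7e-06). SEL1L, SEC62 and ATF6 did not overlap between gates. HSP90B1 (1.40 ± 0.31) and PDIA6 (1.39 ± 0.23) were next, so that 4 of the 6 isomerases were higher in the stromal gate.

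Lower in the stromal gate were SDF2L1 (-1.41 ± 0.40, adjusted p = 0.0074), DDIT3 (-1.28 ± 0.37, adjusted p = 0.0088), SSR4 (-0.64 ± 0.24, adjusted p = 0.039), HERPUD1 (-0.60 ± 0.21, adjusted p = 0.025) and ATF4 (-0.51 ± 0.18, adjusted p = 0.032). SDF2L1 was at 0.211, 0.180 and 0.294 against 0.354 to 0.891 (median 0.523), without overlap. ATF4 was at 5.59, 7.57 and 2.55 in the stromal gate and at 7.01, 6.59 and 3.04 in the T gate on days 0, 1 and 3, and was higher in the stromal gate on day 1. DDIT3, at 1.06, 1.15 and 0.286 against 2.15, 1.27 and 0.569 on those days, was lower in all 3 libraries. HERPUD1 was lower on days 0 and 1, and on day 3 it was at 1.13 times its T level. In a fit on these 2 gates alone 14 of the 21 calls were made again. HERPUD1 (adjusted p = 0.072) and ATF4 (adjusted p = 0.080) were no longer called there, nor were SRP9, SEC61A1, RPN1, CALR and CANX, while FKBP11 (-0.98 ± 0.19, adjusted p = 0.0096) and MZB1 (-0.85 ± 0.21, adjusted p = 0.022) were lower. HSPA5 and XBP1 differed by -0.08 ± 0.22 (adjusted p = 0.82) and 0.79 ± 0.33 (adjusted p = 0.062), and SSR1, SSR2 and SSR3 by -0.03 ± 0.24, 0.15 ± 0.21 and 0.25 ± 0.23 (adjusted p = 0.94, 0.62 and 0.42). Oligosaccharyltransferase ran from -0.19 (OST4) to 0.71 (RPN1), and signal recognition from -0.18 (SRP14) to 0.87 (SRPRB). No gene of signal peptidase passed in either direction, its values running from -0.12 to 0.18. Without the day 3 library the counts were 7 higher and 8 lower, and without day 0 they were 9 and 3, with no counts over all genes given beside them. Among 67 other pathway genes 20 (29.9%) were higher and 3 (4.48%) lower, against 24.6% and 17.5% of all genes tested. The share of higher genes was thus near that of all genes. On top were KDELR3 (5.01 ± 0.69), TUSC3 (3.91 ± 0.71) and FKBP14, an isomerase that acts on collagens (3.33 ± 0.34). The 3 lower ones were ASNS (-1.39 ± 0.46) and PPP1R15A (-1.05 ± 0.39), both known targets of the PERK arm, and EDEM1 (-0.96 ± 0.26). Dissociation genes summed to 46.7, 72.8 and 11.8 in the stromal and 70.8, 46.7 and 19.4 in the T gate on days 0, 1 and 3.

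The plasma and stromal gates were then set against each other. Of the 44 genes 25 (56.8%) were higher in the plasma gate and 3 (6.82%) lower, against 13.9% and 25.8% of all genes tested. Only the day 3 library held both gates, so that the comparison is made mostly between libraries of different ages, by way of the gates they share. MZB1 (4.57 ± 0.72), DERL3 (3.82 ± 0.48), SDF2L1 (3.72 ± 0.45) and TXNDC5 (2.88 ± 0.35) were the highest, followed by HERPUD1 (2.15 ± 0.24) and SPCS1 (1.95 ± 0.24). SEC62 (-1.47 ± 0.19), ATF6 (-0.67 ± 0.20) and SEL1L (-0.60 ± 0.21) were lower. On day 3 alone SEC62 stood at 0.783 in the plasma and 2.68 in the stromal gate, and SDF2L1 at 3.46 and 0.294. All 4 TRAP genes were higher in the plasma gate (SSR1 0.96 ± 0.27, SSR2 0.90 ± 0.24, SSR3 0.74 ± 0.26, SSR4 1.13 ± 0.28), though on day 3 alone only by 1.27, 1.18, 1.20 and 1.13 times. Also higher in the fit were HSPA5 (0.96 ± 0.25), XBP1 (1.74 ± 0.39), ATF4 (0.71 ± 0.21) and DDIT3 (1.93 ± 0.42). For 26 of the 28 called genes the day 3 library alone had the direction of the fit, the exceptions being XBP1 and PDIA4 (0.67 ± 0.26 in the fit), with plasma levels of 0.98 and 0.95 times the stromal ones. The day 3 library is part of the fit, so its direction is no separate check of the calls. The same share over all called genes was not counted. For 11 of the 28 the fold change of the fit and that of day 3 were over 1.5-fold apart, among them SSR1, SSR2 and SSR4, DERL3 with 14.1 and 5.47 and TXNDC5 with 7.36 and 2.60. SEL1L changed its sign with the plasma gate at 20 UMIs of JCHAIN (0.41), and ATF4 was at -0.18 without the library in the model. HSP90B1, at 16.5 and 15.0 in the 2 gates on day 3, did not pass (0.86 ± 0.36, adjusted p = 0.064). Within the groups, signal recognition ran from 0.12 (SRP9) to 0.62 (SRPRB), oligosaccharyltransferase from 0.28 (RPN2) to 0.66 (RPN1), signal peptidase from -0.24 (SEC11A) to 1.95 (SPCS1), and the lowest chaperone and isomerase were CANX (0.08) and PDIA3 (-0.18). Of the other pathway genes 20 (29.9%) were higher in the plasma gate, led by BHLHA15, ERN1 (2.70 ± 0.63) and EDEM1 (2.05 ± 0.30), and 6 (8.96%) lower, with TUSC3, FKBP14 (-3.76 ± 0.45) and KDELR3 (-2.71 ± 0.90) at the end. BHLHA15 (MIST1), a transcription factor of secretory cells, was at 0.319, 0.724, 0.559 and 0.352 in the plasma libraries, and 1 UMI of it was found in the 3 stromal libraries together. TUSC3 was at 0 in all 4 plasma libraries, which allows up to 0.00248 UMIs per 10000 over their sum by counting error, and at 0.224, 0.198 and 0.384 in the stromal ones.

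**Figure D4:**
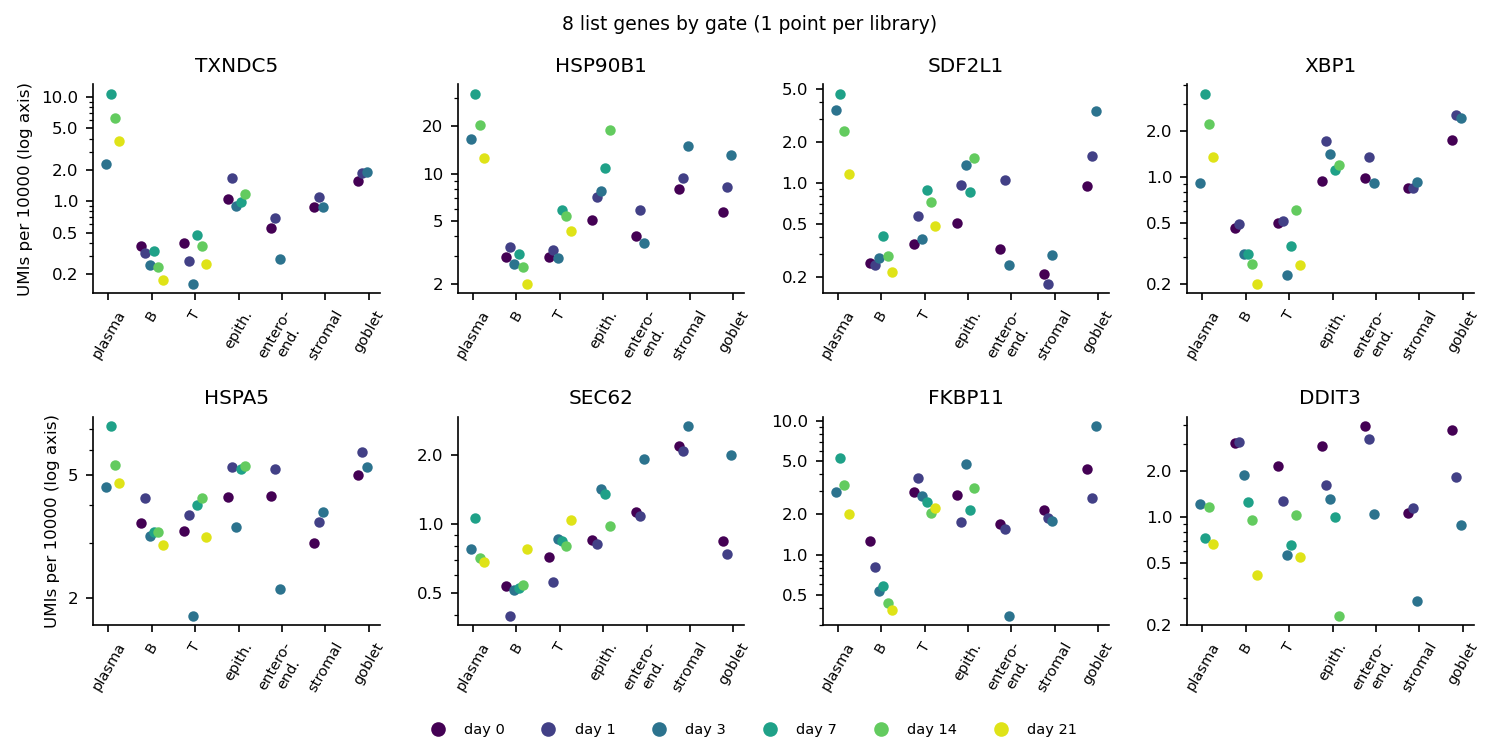
UMIs per 10000 (vertical axis, logarithmic) of 8 list genes in 7 gates (horizontal axis), 1 point per library coloured by age, and no point where a gate held under 20 cells. TXNDC5 is highest in the plasma gate (2.27 to 10.7), SEC62 in the stromal gate (2.09 to 2.68), and DDIT3 spreads by age within the gates.

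Goblet cells, which make the mucin of the mucus layer, were measured on days 0, 1 and 3 and are given as values only. XBP1 was at 1.75, 2.55 and 2.42 UMIs per 10000, above the epithelial gate of each of these libraries (0.945, 1.73 and 1.41) and above every B and T value. FKBP11 was at 4.36, 2.65 and 9.11, and SDF2L1 at 0.944, 1.59 and 3.45 against 0.504, 0.972 and 1.35 in the epithelial gate. All 3 genes were higher in goblet cells in each library, while MZB1 stayed at 0.063 to 0.265. The day 3 value rests on 36 cells, and the goblet gate overlaps the epithelial one.

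With 1 library per age, the course over age is a description with no replicate error. Over all cells the list stood at 90.9, 90.2, 75.0, 90.0, 84.2 and 69.0 UMIs per 10000 on days 0, 1, 3, 7, 14 and 21, and a change in expression cannot be told apart there from the change in cell makeup, since epithelial cells were 27.5% of cells on day 0 and a single cell on day 21. Over all cells 4 of the 44 genes were at least 2-fold higher on day 21 than on day 0 and 11 at least 2-fold lower, with 19.9% and 34.5% of 14208 genes past these limits. Within the B gate 2 of the 44 genes were at least 2-fold higher on day 21 than on day 0 and 6 at least 2-fold lower, while 22.8% and 18.7% of the 11402 genes with 50 UMIs over both libraries were. In the T gate 4 were higher and 2 lower, against 17.5% and 17.1% of 10055 genes. The shares of the list were below those of all genes in both directions in both gates. All 44 list genes lay above the limit of 50 UMIs, and genes near that limit pass 2-fold more easily by counting error. The lower shares therefore do not measure how steady the list is.

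DDIT3 had the lowest ratio in both gates. In the B gate it was at 3.04, 3.09, 1.88, 1.25, 0.957 and 0.419 over the 6 ages, a ratio of day 21 to day 0 of 0.138 (95% interval 0.129 to 0.147, counting error only), and in the T gate at 2.15, 1.27, 0.569, 0.659, 1.04 and 0.549, a ratio of 0.256 (0.198 to 0.326). ATF4 went from 7.52 to 3.85 in the B gate and from 7.01 to 3.70 in the T gate. From day 1 on each later B value was lower, apart from ATF4 on day 7 (5.55) after day 3 (5.43). Dissociation genes in the B gate summed to 54.4 on day 0 and to 9.91 on day 21, and DDIT3 in barcodes of 1 to 100 UMIs was at 2.66 and 0.567. P4HB and FKBP11 in the B gate had ratios of 0.320 (0.288 to 0.354) and 0.305 (0.282 to 0.330), and XBP1 and TXNDC5 of 0.430 and 0.473. Epithelial markers (KRT18, KRT19, KRT20, CDX1, CDX2, LGALS4, CLDN3 and CLDN7) summed to 9.87 UMIs per 10000 in the B gate on day 0 and to 0.0201 on day 21, and to 10.7 and 0.0161 in the T gate. The epithelial gate held more P4HB, FKBP11, XBP1 and TXNDC5 than the B gate on every day measured in both, and the part of RNA from epithelial or lysed cells in these courses was not tested.

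All 4 TRAP genes were lower on day 21 than on day 0 in the B gate. SSR4 went through 13.2, 11.7, 7.48, 7.39, 5.99 and 5.72, a ratio of 0.433 (0.424 to 0.443), and SSR1, SSR2 and SSR3 had ratios of 0.529, 0.602 and 0.636. In the barcodes that stand for RNA free in the suspension, SSR4 was at 16.4 on day 0 and 7.23 on day 21. SSR1, SSR2 and SSR3 went there from 1.37, 5.93 and 2.80 to 0.579, 3.91 and 1.47. The part of free RNA in the courses of the B gate was not tested. In the T gate SSR4 and SSR2 had ratios of 0.537 and 0.765, and those of SSR1 (1.02, 0.842 to 1.22) and SSR3 (1.02, 0.904 to 1.15) had intervals that include 1. The TRAP subunits thus had unlike ratios in the T gate. As a sum, signal peptidase in the B gate, at 6.03 on day 0 and 6.90 on day 21, did not share the course of TRAP, which was at 22.6 and 11.4. Its genes went both ways. SEC11C and SPCS3 had ratios of 0.601 and 0.654, close to those of SSR2 and SSR3. SPCS1, SPCS2 and SEC11A had ratios of 1.65, 1.32 and 1.11.

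Ratios above 1 were found for 23 of the 44 genes in the B gate and 27 in the T gate, with medians over the list of 1.05 and 1.22 and over all genes of 1.28 and 1.24. PDIA6, a disulfide isomerase, went through 0.427, 0.578, 0.813, 1.16, 1.69 and 1.39 in the B gate (ratio 3.25, 2.93 to 3.60) and from 0.214 to 0.629 in the T gate (ratio 2.94, 2.24 to 3.82). SRPRB went through 0.213, 0.191, 0.313, 0.385, 0.548 and 0.605 in the B gate (ratio 2.84, 2.45 to 3.29) and from 0.153 to 0.363 in the T gate (ratio 2.38, 1.67 to 3.32). Both genes were thus higher on day 21 in both gates. In barcodes of 1 to 100 UMIs PDIA6 went from 0.342 to 0.934 and SRPRB from 0.185 to 0.560. MZB1 and DERL3 were 3.60 and 2.91 times higher on day 21 in the T gate, while MZB1 stayed within 3.62 to 4.30 in the B gate. B markers in the T gate summed to 0.768 on day 0 and 5.67 on day 21, and MZB1 in barcodes of 1 to 100 UMIs went from 1.01 to 4.31, and the part of free RNA of B cells was not tested. HSPA5 had ratios of 0.848 (0.816 to 0.882) in the B gate and 0.952 (0.855 to 1.06) in the T gate.

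**Figure D5:**
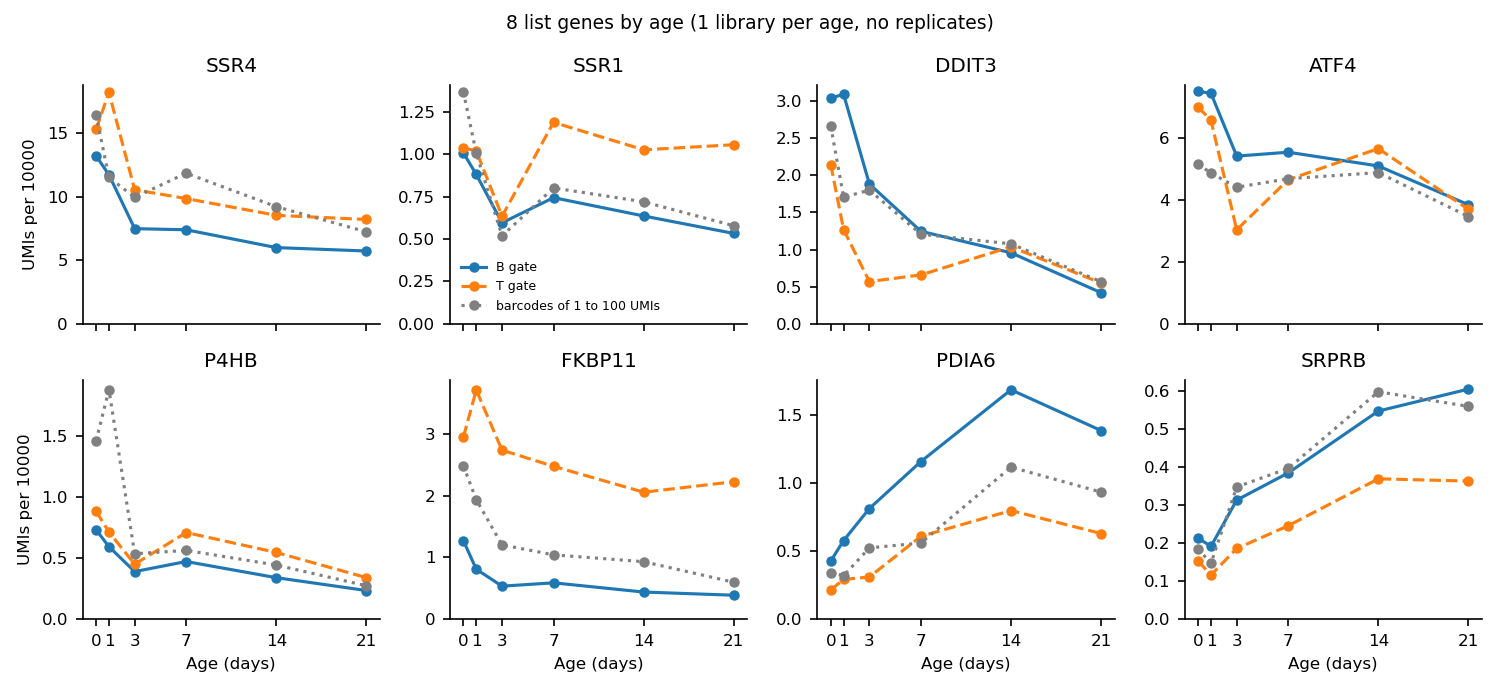
UMIs per 10000 (vertical axis) of 8 list genes by age in days (horizontal axis) in the B gate, the T gate and barcodes of 1 to 100 UMIs, with 1 library per age and no replicates. SSR4, DDIT3, ATF4 and P4HB are lower on day 21 than on day 0 in both gates, PDIA6 and SRPRB are higher, and SSR1 has a ratio of 0.529 in the B gate and 1.02 in the T gate.

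The list genes lie on several chromosomes, and their spacing was not tested. Some lie near each other, such as RPN1 (71892600 to 71908772) and SEC61A1 (72254462 to 72276484) on chromosome 13. RefSeq places TXNDC5 at 5210192 to 5236857 of chromosome 7 in Sscrofa11.1, HSP90B1 at 80511513 to 80531016 and DDIT3 at 22785441 to 22789867 of chromosome 5, XBP1 at 46011239 to 46016526 of chromosome 14, SEC62 at 108660486 to 108688307 of chromosome 13 and SSR4 at 124537545 to 124541635 of the X chromosome, and all 44 are annotated as protein coding. The counted reads come from the 3′ ends of transcripts, so that isoforms that share an end are not told apart.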

How the data were processed

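Cells of the ileum were measured at 6 ages with 1 library each, grouped by the age in the labels. The authors aligned and counted reads with Cell Ranger (version 3.1.0) and STAR against susScr11 per the labels, and deposited unfiltered UMI counts per gene and barcode without normalization. Kit version 3 stands in the labels and version 2 in the methods; the labels give the ileum, and the description of the series the cecum.

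Barcodes with at least 1000 UMIs and 500 genes were kept, doublets included. Median depths were 3693 to 4560 UMIs per cell. UMIs were summed per library and gate with at least 20 cells and fitted with edgeR 4.0.16 in R 4.3.3 (TMM, filterByExpr, glmQLFit and glmQLFTest, gate plus library), Benjamini-Hochberg over all 13399 genes, called below 0.05. The SE is the log2 fold change over the square root of F. The library is a block because the gates of a library come from 1 suspension. Ages have exact 95% Poisson intervals or exact intervals of ratios (scipy 1.17.1, Python 3.11.15), counting error only. On simulated counts (plasma against B, 13048 genes) 25 of 50 genes raised 2-fold, 39 of 47 raised 4-fold, 17 of 50 lowered 2-fold and 38 of 49 lowered 4-fold were recovered, with 2 false calls. The members and lists were chosen with earlier results of these data known. Named are the 6 highest and 4 lowest fold changes called, the highest and lowest of role groups, HSPA5, XBP1, ATF4, DDIT3 and SSR1 to SSR4, of other pathway genes the 3 highest and lowest, and further members chosen after their values were seen. None of the 137 immunoglobulin segments of the reference matches a symbol of the files, so immunoglobulin genes were not taken out in any alternative. Promoter and protein sequences are not analysed here.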

Additional observations from a re-analysis of the deposited data

How the results depend on the processing

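For plasma against B the count of 37 higher genes ran from 30 to 40 over the alternatives that keep all libraries of both gates and the block, and was 41 with the plasma gate at 20 UMIs of JCHAIN, which loses day 3, with 0 lower in each. Without the library as a replicate block, the genes called in the 4 comparisons (plasma against B, enteroendocrine against epithelial, stromal against T, plasma against stromal) were 26, 0, 11 and 18 higher and 0, 4, 1 and 4 lower. Leaving out each library in turn gave 26 to 39 higher and 0 lower for plasma against B, 0 higher and 0 to 14 lower for enteroendocrine against epithelial, 7 to 16 higher and 2 to 8 lower for stromal against T, and 18 to 32 higher and 1 to 3 lower for plasma against stromal. Counts over all genes are not set beside the counts of this paragraph. These therefore do not tell a change of the list from a change over all genes. With only the compared gates in the fit, 1 gene, MZB1, was higher in enteroendocrine cells (0.80 in place of -0.08), and plasma against stromal could not be fitted. A minimum of 50 cells gave 5 lower genes for enteroendocrine cells and 1 for plasma against stromal, no filter on low counts also gave 1 there and the plasma gate at 20 UMIs of JCHAIN 0, and the size factors of DESeq2 gave 3 lower for stromal against T. The plasma gate at 20 UMIs of JCHAIN reversed SEL1L (0.41) and moved the sum to 257 per 10000, and no block reversed ATF4 (-0.18), both against stromal. Over all cells the list on day 0 and day 21 was at 94.5 and 69.2 with 2000 UMIs and 1000 genes per cell, 93.3 and 69.2 below 25% mitochondrial UMIs, 101.4 and 74.3 without mitochondrial and gate genes in the total, 90.1 on day 0 without cells of 2 or more gates, 78.3 and 68.3 as a mean over cells, and 77.9 and 68.3 at 1000 UMIs per cell. The cause of these shifts was not tested. Of 1896 values of single genes under alternatives 1685 kept direction and side of the threshold, 177 were no longer called, 31 were newly called and 3 reversed. Depth limits genes of few UMIs in gates of few cells. In the enteroendocrine gate of day 3, with 40 cells and 286228 UMIs, CRELD2 was at 0. In the epithelial gate of that day it had 54 of 997316 UMIs. The reason for this 0 was not tested.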
